A study of Mus musculus with 2 samples.

Results

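The 10 transcription factors and cofactors that set and hold B cell identity, Pax5, Ebf1, Spib, Spi1, Pou2af1, Pou2f2, Bach2, Irf4, Irf8 and Foxo1, were followed in myocardial B cells of neonatal and adult mice. They were a named list of 10 of the 31053 genes in the count tables, chosen with earlier results of these data known. B cells were sorted by surface markers from the hearts of wild-type C57BL6/J mice, 6 neonatal mice of 2 weeks (15 days in the sample title, males and females pooled) and 6 adult males of 8 weeks, and each age was sequenced as 1 droplet library. Age, the pool of mice, sex and the library therefore cannot be told apart, there is no replicate, and no test across samples was possible. The unit counted was the unique molecular identifier (UMI), which marks 1 captured mRNA molecule, and the tables held 26866958 gene UMIs of neonatal and 49500780 of adult droplets. Cells were droplets with at least 2000 gene UMIs, at most 10% mitochondrial UMIs and at least 1 UMI of Cd79a, which encodes a chain of the B cell receptor. This left 2077 neonatal cells with a median of 6000 UMIs and 3611 adult cells with a median of 6131 UMIs, and 2 barcodes were selected in both libraries. Barcodes with at least 500 UMIs in both libraries were carried by 61 of the neonatal and 45 of the adult cells. The level of a gene is its UMIs summed over the cells of a library per 1000000 UMIs of those cells (CPM), and intervals are exact 95% intervals (for a difference of shares, combined from both exact intervals) that cover counting error only, not the spread between mice or libraries.

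As background, Ebf1 and Pax5 act at the top of the B cell program: they switch on genes of the B cell receptor and its coreceptors, and Pax5 also silences genes of other lineages. PU.1, the product of Spi1, and the related Spi-B are ETS family factors, and Irf4 and Irf8 bind DNA poorly alone and join these ETS partners on composite sites. Pou2f2 encodes Oct-2, which binds the octamer element, and Pou2af1 encodes its coactivator OCA-B. Bach2 represses the plasma cell program, Foxo1 drives recombination and homing genes of resting B cells and is switched off by PI3K signaling, and Irf4 rises with B cell receptor signaling and at high levels directs plasma cell differentiation.

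The labelled cell type was checked with B cell genes that the cell rule did not use. Cd79b was at 1800 CPM in neonatal and 1263 CPM in adult cells and Ms4a1, which encodes CD20, at 1347 and 1154 CPM. Transcripts of other cells were rare and unequal. The 8 macrophage markers summed to 120 CPM in neonatal and 20.8 CPM in adult cells, with none at 0 in either library, and 20 neonatal and 28 adult cells had at least 2 of them. The 8 T cell markers summed to 20.2 and 27.2 CPM, again with none at 0. S100a8 and S100a9 of neutrophils had 111 and 295 UMIs in neonatal cells and 0 in adult cells.

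Irf4 and Spib were the members that differed most between the libraries, and the 250 bases before their start sites are shown to place them in the genome. They come from the RefSeq promoter table of GRCm38.p6, which held 9 of the 10 members, and run 5′ to 3′ on the gene's strand. Irf4 (ENSMUSG00000021356) lies on chromosome 13 from 30749226 to 30766976 on the plus strand, and Spib (ENSMUSG00000008193) on chromosome 7 from 44525993 to 44532071 on the minus strand in the GENCODE annotation of GRCm38. Capitals mark matches on either strand to 6 searched motifs, the octamer ATGCAAAT, a PU box GAGGAA, a kappaB site GGGNNTTCC, an IRF site (GAAA, any 2 bases, GAAA), an EBF site CCCNNGGG and the TATA box TATAAA.
Irf4, chr13:30748983-30749232, plus strand: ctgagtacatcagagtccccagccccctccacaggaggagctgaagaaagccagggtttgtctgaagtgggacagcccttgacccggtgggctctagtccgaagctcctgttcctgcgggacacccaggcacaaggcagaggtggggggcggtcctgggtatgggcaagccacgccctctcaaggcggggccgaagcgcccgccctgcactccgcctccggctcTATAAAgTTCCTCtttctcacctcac
Spib, chr7:44532072-44532321, minus strand: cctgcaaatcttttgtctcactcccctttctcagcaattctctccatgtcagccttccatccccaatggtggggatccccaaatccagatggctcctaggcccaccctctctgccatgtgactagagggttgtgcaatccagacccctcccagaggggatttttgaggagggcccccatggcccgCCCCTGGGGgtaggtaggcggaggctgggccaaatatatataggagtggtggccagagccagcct
The capitals in the Irf4 sequence are a TATA box and, on the opposite strand, a PU box. They begin 26 and 19 bases before the RefSeq start. That start lies downstream of the GENCODE start, so the last bases shown fall within the GENCODE gene. Those in the Spib sequence are 2 overlapping matches to the EBF letters, which begin 65 and 64 bases before the start. Of the same 250 bases of 32851 RefSeq promoters, 12.4% held the TATA letters, 23.3% the PU box, 11.8% the EBF letters, 4.98% the kappaB, 2.98% the IRF and 1.60% the octamer letters. The matches are a description of the sequence and say nothing of binding in these cells.

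Irf4 was 2.83-fold higher in neonatal than in adult B cells. It had 3154 UMIs (192 CPM, 186 to 199) in neonatal cells and 2353 UMIs (68.0 CPM, 65.2 to 70.8) in adult cells, which held more UMIs in total. The log2 ratio of adult over neonatal was -1.50 (-1.58 to -1.42). The intervals of the libraries lie far apart, and the cell with most Irf4 UMIs held 1.24% of the neonatal and 0.722% of the adult UMIs, so no single cell carried the level. Spib, the Spi-B gene, was 1.87-fold higher in the neonatal library, with 3844 UMIs (234 CPM, 227 to 242) against 4350 UMIs (126 CPM, 122 to 129) and a log2 ratio of -0.90 (-0.96 to -0.84). Irf4 and Spib were thus the 2 members at least 1.5-fold higher in the neonatal library, and 0 members were 1.5-fold higher in the adult library. Among the 10703 genes with at least 50 UMIs over both libraries, 12.2% were at least 1.5-fold higher on the neonatal side and 7.82% on the adult side. With 10 members, a count of 2 is not set apart from that background. Just outside the limit lay Bach2, which was 1.498-fold higher in the neonatal library.

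**Figure D1:**
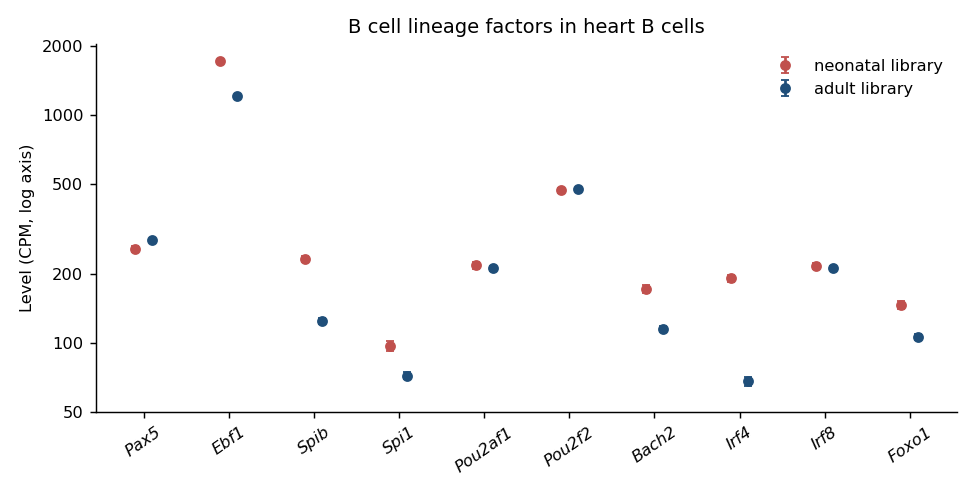
Level of each member in the neonatal (red) and adult (blue) library, in CPM on a log axis, with exact 95% Poisson intervals (often smaller than the point). Irf4 and Spib stand apart between the libraries, at 192 against 68.0 CPM and 234 against 126 CPM, while Pou2af1, Pou2f2 and Irf8 overlap or nearly overlap.

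The other ETS factor, Spi1 (PU.1), was at 97.5 CPM (92.8 to 102) in neonatal and 72.1 CPM (69.3 to 75.0) in adult cells, a log2 ratio of -0.43 (-0.53 to -0.34). Spi1 is also transcribed in macrophages, whose markers were higher in the neonatal library. Without the cells that held at least 2 macrophage or at least 2 T cell markers its ratio was -0.35. Irf8, the partner of Irf4 in its family, was at 218 CPM (210 to 225) and 214 CPM (209 to 219), a log2 ratio of -0.03 (-0.08 to 0.03). The interval of Irf8 included 0 and that of its relative Irf4 did not.

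The master regulators did not move together. Ebf1 had 28078 UMIs (1712 CPM, 1692 to 1732) in neonatal and 41664 UMIs (1203 CPM, 1192 to 1215) in adult cells, a log2 ratio of -0.51 (-0.53 to -0.49). Pax5 was slightly higher in the adult library, at 258 CPM (250 to 266) against 281 CPM (276 to 287), a log2 ratio of 0.13 (0.08 to 0.18), and fell to the other side of 0 in 2 of 17 other settings. Oct-2 and its coactivator were level when all cells were summed. Pou2f2 was at 467 CPM (456 to 477) and 472 CPM (464 to 479), a log2 ratio of 0.01 (-0.03 to 0.05), and Pou2af1 at 219 CPM (212 to 226) and 213 CPM (208 to 218), a log2 ratio of -0.04 (-0.10 to 0.01). Bach2, the repressor of the plasma cell program, was at 173 CPM (167 to 179) in neonatal and 115 CPM (112 to 119) in adult cells, a log2 ratio of -0.58 (-0.65 to -0.51). Foxo1 was at 147 CPM (141 to 153) and 106 CPM (103 to 110), a log2 ratio of -0.47 (-0.55 to -0.40). The median over the 10 members was -0.45, and the median over all 10703 genes was -0.13.

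These ratios were recomputed under 17 other choices of cells, scaling and depth. Irf4 stayed past the 1.5-fold limit in all 17, between -1.63 and -1.24, and Spib in all 17, between -1.69 and -0.60. Ebf1, Spi1, Bach2 and Foxo1 had a negative ratio in all 17, Bach2 passed the limit in 8, Foxo1 in 3 and Spi1 in 2. Pou2f2, Pou2af1 and Irf8 took either sign, as did Pax5. The scaling by the median of the gene ratios, which assumes that most genes are equal, moved the median of the members to -0.32.

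**Figure D2:**
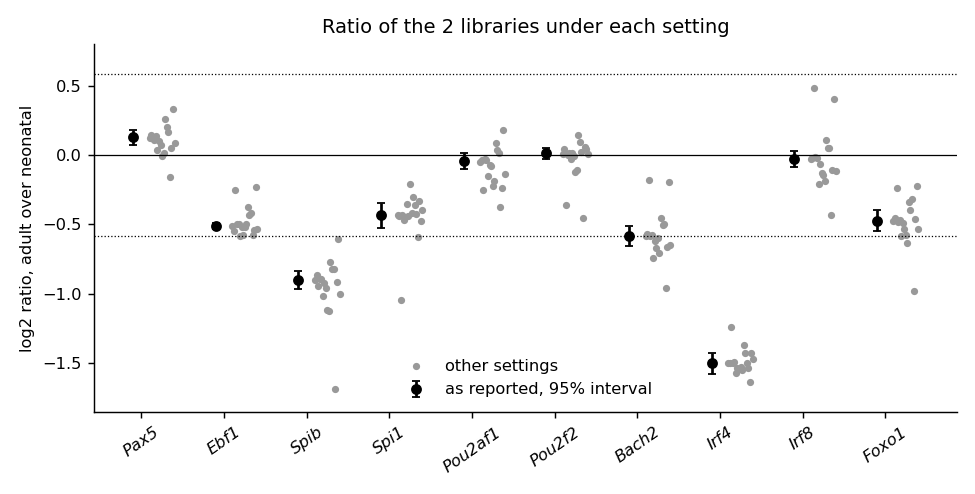
Log2 ratio of adult over neonatal CPM for each member, with the value as reported and its exact 95% interval in black and 17 other settings in grey; dotted lines mark 1.5-fold. All grey points of Irf4 (-1.63 to -1.24) and Spib (-1.69 to -0.60) lie below the lower dotted line, and those of Pax5, Pou2af1, Pou2f2 and Irf8 fall on either side of 0.

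The neonatal pool held both sexes, which allowed the neonatal level to be read in different mice of the same library. Cells of both sexes share that 1 library and pool, so they are not replicates of the age. By Y-linked and Xist transcripts, 1279 neonatal cells were male and 323 female, with medians of 6269 and 5543 UMIs. A further 80 cells had both kinds of transcript and 395 had neither. Irf4 was at 192 CPM in male and 182 CPM in female cells, both well above the 68.0 CPM of the adult males. Spib was at 222 and 245 CPM, both above the adult 126 CPM. Across the members the log2 ratio of male over female cells ran from -0.45 for Foxo1 to 0.08 for Irf4, and 0 of 10 reached 1.5-fold, as did 5.37% of genes toward male and 2.74% toward female cells. The Foxo1 value, 132 CPM in male and 180 CPM in female neonatal cells, is nearly as large as its ratio between the ages. Neonatal Foxo1 was also lower in deeper cells, at 200 CPM under 5000 UMIs and 124 CPM from 10000 UMIs. The part of depth in the male to female ratio was not tested. With neonatal males alone the age ratio was -0.31 (-0.40 to -0.22) for Foxo1, -1.50 (-1.59 to -1.41) for Irf4 and -0.82 (-0.90 to -0.75) for Spib.

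The ratios were also compared within ranges of depth. Cells were divided, after the data had been seen, into those with under 5000, 5000 to under 10000 and at least 10000 UMIs. Depth still differed within the ranges, with medians of 4473, 6194 and 13907 UMIs in neonatal and 4004.5, 7141 and 15461 UMIs in adult cells. Irf4 was at 206, 194 and 185 CPM over these ranges of neonatal cells and at 71.0, 62.7 and 69.1 CPM over those of adult cells, so its log2 ratio was nearly the same in each, at -1.54, -1.63 and -1.42. Spib was at 349, 227 and 201 CPM in neonatal cells but at 109, 120 and 132 CPM in adult cells, and its ratio shrank from -1.69 through -0.91 to -0.60. Irf8 changed sign, from -0.43 (-0.57 to -0.30) in the shallowest to 0.41 (0.31 to 0.51) in the deepest cells. So did Pax5, from -0.16 (-0.29 to -0.03) to 0.33 (0.25 to 0.41), and Pou2af1, from -0.37 (-0.51 to -0.23) to 0.18 (0.09 to 0.27). Pou2f2 was at -0.46 (-0.56 to -0.36) in the shallowest and 0.04 (-0.01 to 0.10) in the deepest cells. Bach2 and Foxo1 had ratios of -0.95 and -0.98 in the shallowest and of -0.19 and -0.23 in the deepest cells. At least 1.5-fold higher in the neonatal library were 5 of 10 members in the shallowest cells, where 17.2% of all genes were, 3 in the middle range, where 15.2% were, and 2 in the deepest, where 11.6% were. In the other direction 0 members passed in any range, against 6.14, 6.23 and 7.11% of genes. Depth goes with the kind of cell, since cells with B1 markers were the deeper ones, and the part of either in these ratios was not tested.

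Since deeper cells show more transcripts, shares of cells were compared after every cell had been reduced at random to 2000 UMIs, which all cells reached. An Irf4 UMI was then present in 624 of 2077 neonatal cells (30.0%, 28.1 to 32.1%) and 435 of 3611 adult cells (12.0%, 11.0 to 13.2%), a difference of -18.0 percentage points (-20.3 to -15.7). Spib was present in 34.6% (32.6 to 36.7%) and 19.5% (18.2 to 20.9%), a difference of -15.1 points (-17.5 to -12.7). A smaller share of adult cells carried these transcripts, and in the cells as sequenced, which differ in depth, the shares were 59.8% and 33.2% for Irf4 and 67.8% and 52.5% for Spib. Bach2 differed by -8.09 points (29.3 against 21.2%), Foxo1 by -6.65 points (24.7 against 18.0%) and Ebf1 by -5.03 points (93.8 against 88.8%). The intervals of the difference for Pax5 (40.0 against 41.2%), Spi1 (15.4 against 14.2%) and Pou2f2 (55.4 against 53.4%) included 0. Those for Pou2af1 (34.4 against 31.4%) and Irf8 (35.9 against 33.0%) lay just below it. A thinned cell showed 3.93 members on average among neonatal and 3.33 among adult cells, and 6 neonatal and 41 adult cells had none.

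**Figure D3:**
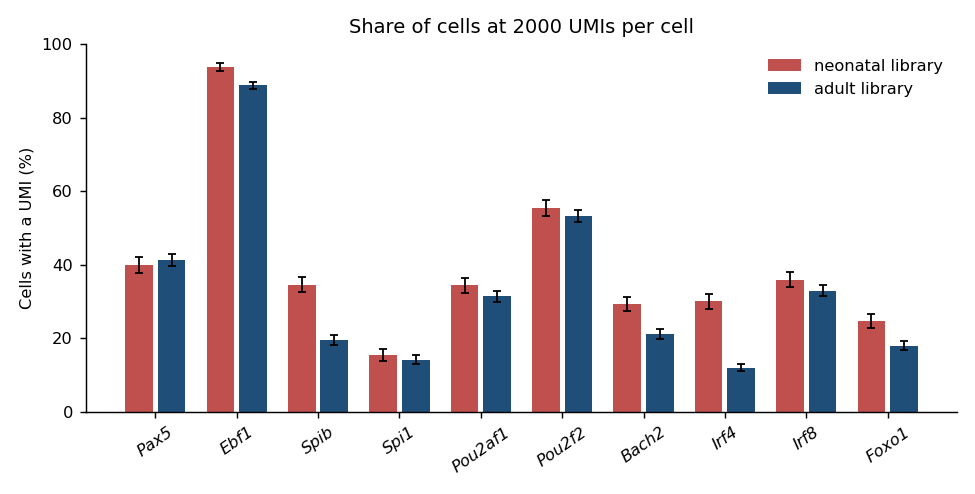
Share of cells with at least 1 UMI of each member after each cell was thinned to 2000 UMIs, with exact 95% binomial intervals, for 2077 neonatal (red) and 3611 adult (blue) cells. The gap is widest for Irf4 (30.0 against 12.0%) and Spib (34.6 against 19.5%), and the bars of Pax5, Spi1 and Pou2f2 are within counting error of each other.

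Free RNA would give far lower shares than these. Near-empty droplets averaged 55.9 (neonatal) and 92.0 (adult) UMIs, and that amount of free RNA in a droplet would put an Irf4 UMI in 0.348% of the thinned neonatal cells and 0.256% of the thinned adult cells. The highest such share was 1.38%, for Ebf1 in the adult library. Droplets without UMIs of B cell markers offer a check, although few were found. In 3 macrophage-like droplets (median 6347 UMIs), which lack the B cell program, Spi1 and Pou2f2 were found in all 3. Pax5, Ebf1, Spib, Pou2af1, Bach2, Irf4, Irf8 and Foxo1 were each found in 0 (an interval up to 70.8%). In 4 T cell-like droplets (median 7840 UMIs), Pou2af1 was found in 1 and the other 9 members in 0 (up to 60.2%).

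The cells of each library were then divided by transcripts of Cr2, which encodes CD21, and Fcer2a, which encodes CD23, into 4 groups with at least 1 UMI of neither, of Cr2 only, of Fcer2a only or of both. The neonatal library gave 1032, 120, 702 and 223 cells and the adult library 649, 330, 1260 and 1372 cells in this order. The groups differ in depth, with medians from 5567 (neither) to 7163 UMIs (both) among neonatal cells and from 4603 (Fcer2a only) to 9083 UMIs (both) among adult cells. A cell without a UMI may still have had the transcript. Against cells with neither transcript, 0 of 10 members reached 1.5-fold in neonatal Cr2-only cells (3.85% of genes higher, 10.2% lower), neonatal cells with both (3.38% higher, 5.6% lower), adult Cr2-only cells (3.26% higher, 2.88% lower) and adult Fcer2a-only cells (5.19% higher, 4.37% lower). The other contrasts, neonatal Fcer2a-only cells and adult cells with both, each held members past it.

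Spib separated the neonatal groups. It was at 286 CPM in neonatal cells with neither transcript, 274 CPM with Cr2 only, 167 CPM with Fcer2a only and 211 CPM with both. The groups with and without Fcer2a did not overlap in their intervals, while neither and Cr2 only did. Against cells with neither, the log2 ratio was -0.77 (-0.89 to -0.66) in Fcer2a-only cells and -0.44 (-0.58 to -0.30) in cells with both. In the adult library Spib was nearly flat, at 128, 125, 111 and 132 CPM, with a ratio of -0.21 (-0.36 to -0.06) in Fcer2a-only cells. With groups and levels both taken at 2000 UMIs per cell, the neonatal Fcer2a-only ratio was -0.74 (-0.99 to -0.49) and that of cells with both -0.51 (-1.35 to 0.22), an interval that includes 0. Without cells that carried at least 3 B1 or cycling cell markers it was -0.99 (-1.11 to -0.86). Spib was the only member past 1.5-fold in that contrast, where 5.52% of genes were lower and 2.17% higher by as much.

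In cells at their own depth, Irf4 was lower in every adult group than in every neonatal group. Its level was 184, 198, 191 and 217 CPM in neonatal cells with neither, Cr2 only, Fcer2a only and both, and 56.9, 50.8, 69.9 and 72.9 CPM in the adult groups. The log2 ratio of the ages ran from -1.96 (Cr2 only) to -1.45 (Fcer2a only). Against cells with neither, the neonatal ratio of cells with both was 0.24 (0.09 to 0.38), and among the adult groups those with Fcer2a lay slightly above those without it. With groups and levels taken at 2000 UMIs per cell, Irf4 was at 207, 171 and 200 CPM in neonatal cells with neither, Cr2 only and Fcer2a only and at 66.4 to 77.3 CPM in the adult groups. The adult ratios to neither at that depth were 0.055 (-0.23 to 0.34) with Fcer2a only and 0.18 (-0.31 to 0.63) with both. Both intervals include 0, so the adult difference was not detectable there. The 39 neonatal cells with both then held 4 Irf4 UMIs, or 51.3 CPM (14.0 to 131), an interval that covers the adult levels. Their ratio to neither turned to -2.01 (-3.89 to -0.65). The order of the ages thus held at that depth in 3 of the 4 groups, and the few UMIs of the smallest cannot decide it there. Irf8, at the cells' own depth, was higher in the adult cells with Fcer2a. It was at 154 and 157 CPM with neither and Cr2 only and at 217 and 237 CPM with Fcer2a only and both, and the neonatal groups were at 217, 263, 213 and 213 CPM. Its age ratio was -0.49 in cells with neither and 0.15 in cells with both. At 2000 UMIs per cell the adult Irf8 levels were 207, 236, 227 and 248 CPM, and the ratio of Fcer2a only over neither went from 0.49 to 0.13 (-0.03 to 0.29).

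Foxo1 and Irf8 were the 2 of 10 members at least 1.5-fold higher in adult cells with both transcripts than in those with neither, with log2 ratios of 0.64 (0.48 to 0.80) and 0.62 (0.51 to 0.74), where 7.35% of genes were, and 0 were lower by as much (3.65% of genes). Foxo1 was at 75.8, 86.3, 104 and 118 CPM over the adult groups and at 139, 156, 153 and 157 CPM over the neonatal groups. Pax5 had the next largest adult ratio, 0.53 (0.44 to 0.63), from 214 and 309 CPM, and a neonatal ratio of 0.17 (0.04 to 0.30). Over the 10 members the median ratio of both over neither was 0.38 among adult and 0.18 among neonatal cells, against 0.13 and -0.011 over all genes. With groups and levels taken at 2000 UMIs per cell these medians were 0.088 and 0.012, and the neonatal median was negative in 4 other settings. The adult intervals of Foxo1 (-0.17 to 0.60) and Irf8 (-0.0014 to 0.52) then included 0, so these differences were not detectable at that depth. Bach2 was lowest in adult Cr2-only cells, at 62.8 CPM against 93.9 (neither), 129 (Fcer2a only) and 124 CPM (both). This ratio to cells with neither, -0.58 (-0.83 to -0.34), was -0.49 (-0.90 to -0.10) at 2000 UMIs per cell and -0.55 without cells with B1 or cycling markers. Ebf1 was likewise lowest in adult Cr2-only cells, at 884 CPM, and highest in adult Fcer2a-only cells, at 1387 CPM, but at 2000 UMIs per cell its Cr2-only ratio was 0.04 (-0.06 to 0.14).

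**Figure D4:**
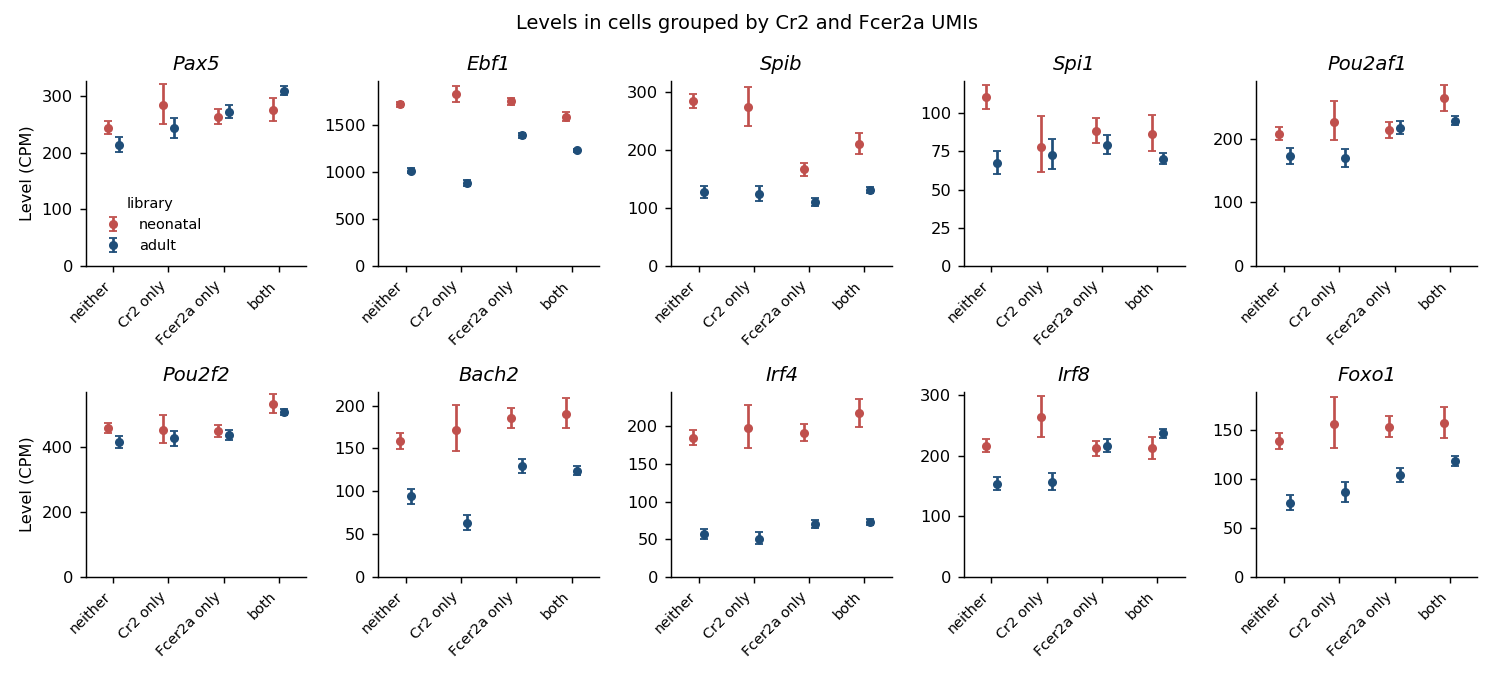
Level in CPM of each member in cells with neither transcript, Cr2 only, Fcer2a only or both, for the neonatal (red) and adult (blue) library, with exact 95% Poisson intervals and axes from 0. At the cells' own depth, Irf4 is at 184 to 217 CPM in the neonatal groups and at 50.8 to 72.9 CPM in the adult groups, and Spib falls from 286 to 167 CPM between neonatal cells with neither and with Fcer2a only.

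Within each of the 4 groups the adult library was also compared with the neonatal library, at the cells' own depth. At least 1.5-fold higher in the neonatal library were 6 of 10 members in cells with neither (20.6% of genes), 6 with Cr2 only (21.8%), 2 with Fcer2a only (9.99%) and 3 with both (11.6%). In the other direction the count was 0 in every group (5.38, 9.45, 5.89 and 9.69% of genes). Irf4 and Spib passed in all 4 groups, with Spib at -1.16, -1.13, -0.59 and -0.68. Ebf1 was at -0.76 and -1.04 in the groups without Fcer2a and at -0.33 and -0.37 in those with it. Bach2 passed in the groups with neither, with Cr2 only and with both. The macrophage markers were at 162, 7.38, 61.6 and 160 CPM in the neonatal groups and at 25.9, 10.5, 32.4 and 16.3 CPM in the adult groups in the same order, and their part in it was not tested.

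Spi1 was highest in neonatal cells with neither transcript, at 110 CPM, and lower with Cr2 only (78.0 CPM), Fcer2a only (88.4 CPM) and both (86.2 CPM). In the adult groups it was at 67.6, 72.7, 79.1 and 70.2 CPM. With the cells that had at least 2 macrophage or T cell markers left out, the macrophage markers fell to 12.1 CPM in neonatal cells with neither, Spi1 was at 105 CPM there, and the ratio of Fcer2a only over neither was -0.30 (-0.48 to -0.13) in place of -0.32.

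The factors were also compared between cells with B1 cell transcripts and the rest. At 2000 UMIs per cell, 224 neonatal and 357 adult cells had at least 3 of 8 B1 markers (Bhlhe41, Zbtb32, Ahnak, S100a6, Plac8, Anxa2, Fcrl5 and Cd5). They were deep cells as sequenced, with medians of 12217 and 14826 UMIs against 5823 and 5473 UMIs in the others, so levels were compared after thinning. Thinning makes the UMIs equal but does not make the cells alike. From cells under 5000 UMIs to those from 10000 UMIs, Ebf1 fell from 2575 to 1202 CPM (neonatal) and from 1726 to 1023 CPM (adult). Bach2 fell from 275 to 123 CPM and from 142 to 108 CPM. The part of depth in the ratios of B1 marker cells was not tested. Ebf1 was lower in them in both libraries, at 1225 against 2086 CPM in neonatal and 746 against 1465 CPM in adult cells, log2 ratios of -0.77 (-0.90 to -0.64) and -0.97 (-1.10 to -0.85). Bach2 was lower as well, at -1.09 (-1.57 to -0.65) and -0.68 (-1.09 to -0.30). Foxo1 had a ratio of -1.51 (-2.13 to -0.94) in the neonatal library, from 26 UMIs in the B1 marker cells, and -0.46 (-0.88 to -0.06) in the adult library. Irf8 was at -0.66 and -0.44 and Pax5 at -0.38 and -0.47. Pou2f2 alone had an interval above 0 in both libraries, at 0.21 (0.00 to 0.41) and 0.20 (0.03 to 0.36). At least 1.5-fold lower were 4 of 10 members in the neonatal cells (16.8% of genes) and 2 of 10 in the adult cells (16.7%), and 0 were higher by as much (7.1 and 7.63% of genes). The adult counts are near the background.

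Vpreb3, a relative of the surrogate light chain genes that is transcribed in immature and transitional B cells, marked 947 neonatal and 1108 adult cells at 2000 UMIs. As sequenced these were the shallower cells, with medians of 5589 and 4955 UMIs against 6372.5 and 7126 UMIs in the others. The part of depth in the ratios of Vpreb3 cells was not tested. Spib was at 331 CPM in neonatal cells with a Vpreb3 UMI and 177 CPM in those without, a log2 ratio of 0.91 (0.72 to 1.09), and it was the 1 member past 1.5-fold, where 4.54% of genes were (0 members and 3.16% of genes were lower). Among adult cells Spib was at 122 and 111 CPM, a ratio of 0.14 (-0.07 to 0.36), and 0 members passed in either direction (2.71% of genes higher, 3.55% lower). Ebf1 was higher in Vpreb3 cells of both libraries, by 0.41 and 0.36, and Irf8 by 0.57 and 0.25. Foxo1 was higher by 0.52 (0.29 to 0.75) in neonatal cells, and its adult ratio was 0.10 (-0.13 to 0.32). Bach2 was higher by 0.23 (0.02 to 0.43) and 0.44 (0.25 to 0.64). Irf4 was not, with ratios of 0.07 (-0.13 to 0.27) and 0.20 (-0.08 to 0.47). Both intervals of Irf4 included 0. A thinned cell without a Vpreb3 UMI may still have had the transcript, and the part of Vpreb3 cells in the age ratio of Irf4 was not tested.

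**Figure D5:**
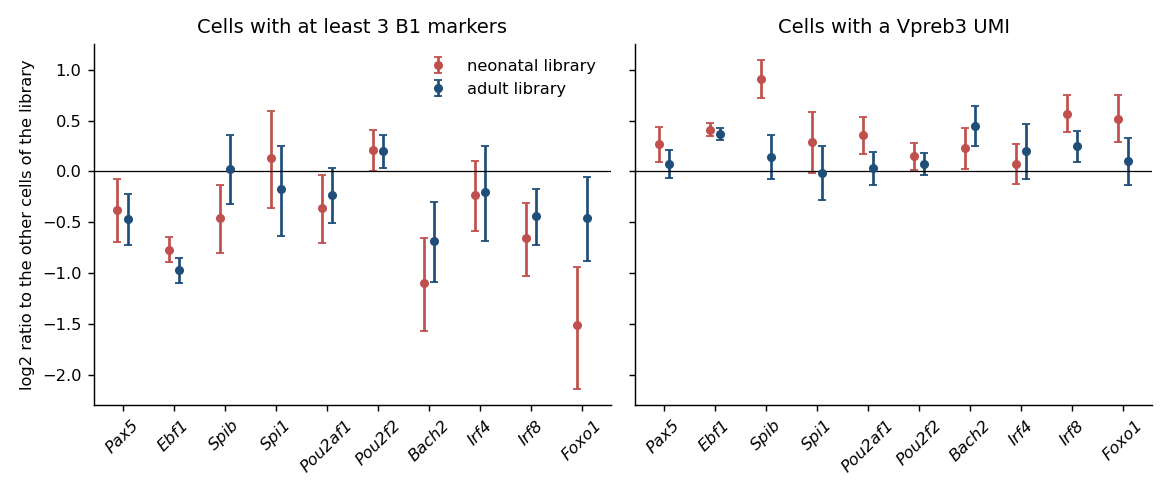
Log2 ratio of each member in cells with at least 3 B1 markers (left) and with a Vpreb3 UMI (right) to the other cells of the same library, at 2000 UMIs per cell, with exact 95% intervals, for the neonatal (red) and adult (blue) library. Ebf1 and Bach2 lie below 0 in B1 marker cells of both libraries, and Spib reaches 0.91 in neonatal Vpreb3 cells against 0.14 in adult ones.

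The wider network was read from lists of related genes, for which the same background applies, 7.82% of genes higher on the adult and 12.2% on the neonatal side. Of 42 other transcription factors of the B lineage, 10 passed 1.5-fold on the neonatal and 5 on the adult side, with a median log2 ratio of -0.19. The neonatal side was led by Gfi1 (-2.74), Myb (-2.38), Sox4 (-1.68) and Lef1 (-1.65), which act in progenitors and immature lymphocytes. On the adult side Tbx21, which encodes T-bet, had 57 UMIs against 0, followed by Id2 (1.08), an inhibitor of E proteins, Zbtb20 (1.01) and Lmo2 (85.2 CPM in neonatal and 170 CPM in adult cells). Of 16 genes of the B cell program under Pax5 and Ebf1, 13 had enough UMIs, and 4 passed on the neonatal and 0 on the adult side. These were the recombinase gene Rag1 (-3.58, from 51 and 9 UMIs), Vpreb3 (-1.10), the kinase gene Blk (-0.84) and Fcrla (-0.78). Of 10 genes bound by PU.1 and Spi-B in B cells, 1 was higher in the neonatal library, the kinase gene Syk (-0.63), and 0 in the adult library. Of 10 genes that depend on Foxo1, 9 could be compared. Rag1, Il7r (-2.09), the interleukin receptor of B cell progenitors, and Ccr7 (-1.23), a chemokine receptor for lymph node homing, were higher in the neonatal library. Of 8 plasma cell genes opposed by Pax5 and Bach2, 7 could be compared and 1 passed the limit, Irf4 itself. The median of that list was 0.080, and its other 6 compared genes stayed within 1.5-fold.

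How often members were found together in a cell was set against their separate shares, and the median ratio over pairs was 1.02 in both libraries. For each of the 45 pairs at 2000 UMIs per cell, the number of cells with both was divided by the number expected from the shares. This ratio ran from 0.866 to 1.19 among neonatal and from 0.824 to 1.15 among adult cells. For 0 pairs did the interval lie on the same side of 1 in both libraries. That interval takes the count as Poisson and the expected number as fixed, which is too wide for common members. Ebf1 was in 93.8% of neonatal and 88.8% of adult cells, so its pairs could hardly leave 1. The count of 0 therefore cannot decide whether members go together. The pair farthest above 1 was Spib and Irf8 in neonatal cells, with 308 cells against 258 expected (ratio 1.19, 1.06 to 1.33), and the same pair was at 1.01 (0.886 to 1.15) in adult cells. In adult cells the highest pair was Pou2af1 and Bach2, at 1.15 (1.02 to 1.30), with 1.12 (0.981 to 1.27) in neonatal cells. The lowest adult pair was Spib and Irf4, at 0.824 (0.643 to 1.04), with 0.949 (0.824 to 1.09) in neonatal cells.

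The genes whose levels over the 8 combinations of library and group lay closest to each member's were also listed, by the root mean square difference of log2 CPM after each gene's own mean was subtracted, among 8265 genes. The levels share the libraries and cells, so likeness is a description. For Irf4 the 3 closest were Flcn (0.14), Vangl2 (0.15) and Igf2bp3 (0.17), and for Spib Klhl14 (0.082), Iqce (0.13) and Ttll4 (0.13). Bach2 lay closest to Ets1 (0.093), itself a lymphoid ETS factor, Selenop (0.10) and Plekhg2 (0.11). Irf4 had the widest spread of its own over the combinations, with a root mean square of 0.85, followed by Bach2 (0.52) and Spib (0.50). For Foxo1 the closest were Hdac7 (0.051), Ikbkb and Ago1, and for Ebf1 Klf11 (0.044), Cdc42se1 and Tmem55b. Irf8 lay closest to Ralgps2 (0.064), Dhx57 and Cdk13, and Spi1 to Stk16 (0.049), Ube2j2 and Ube2z. Pax5, Pou2af1 and Pou2f2 had the narrowest spreads, at 0.15, 0.20 and 0.11. Pax5 lay closest to Fkbp15 (0.052), Bin1 and Dennd5b, Pou2af1 to Ggps1 (0.038), Tnrc6b and Adipor1, and Pou2f2 to Baz1a (0.040), Pnisr and Dock8.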

How the data were processed

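Single cells of neonatal and adult hearts were sequenced with the 10x Genomics Chromium Single Cell 3′ chemistry, 1 library per age. Raw UMI counts for every gene and barcode, from Cell Ranger (3.0.2 per the file headers) and mm10, were deposited by the authors without a filter on droplets; the annotation used is not given in the sources used here. Rows for 3 antibodies held 3 UMIs in the neonatal and 2 in the adult table and were not used. Cells were selected by the rule in the report; doublets were not removed. Calculations used scipy 1.17.1, pandas 2.3.3 and numpy 2.4.6 in Python 3.11.15, and figures matplotlib 3.10.9. Ratios have exact conditional binomial intervals, levels Poisson and shares Clopper-Pearson intervals, and the interval of a difference of shares combines the bounds of both. Near-empty droplets were ranks 45000 to 90000 by UMIs. Genes needed at least 50 UMIs over the cells compared, and a gene at 0 was set to 3 UMIs. Members and lists were chosen with earlier results of these data known. Genes of the lists were named when past 1.5-fold, at most 4 each way by size, and for each member the 3 most like genes were found. Alternatives changed the limits on UMIs, mitochondrial share, Cd79a and doublets, the scaling, the thinning and the low count filter. The scripts were tested on simulated data. Some genes of the lists are not reported here. Coordinates are those of GENCODE, to which 99.6% of gene identifiers matched.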

Additional observations from a re-analysis of the deposited data

Results flagged for a closer look

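Some members moved in opposite directions in the libraries when the groups were compared, with both counting intervals off 0; with 1 library per age these differences were not tested. Ebf1 had a log2 ratio of Cr2 only over neither of 0.088 among neonatal and -0.20 among adult cells, and of both over neither of -0.11 and 0.28. Without cells with B1 or cycling markers the Cr2-only ratios were -0.12 (-0.20 to -0.05) and -0.23 (-0.30 to -0.15), on the same side of 0. Those of both over neither stayed on opposite sides, at -0.32 (-0.38 to -0.27) among neonatal and 0.10 (0.05 to 0.15) among adult cells. With groups and levels at 2000 UMIs the intervals of all 4 Ebf1 ratios included 0. Spi1 had a log2 ratio of Fcer2a only over neither of -0.32 among neonatal and 0.23 among adult cells. The adult value was 0.060 (-0.21 to 0.33) at 2000 UMIs and 0.20 (-0.03 to 0.42) without cells with B1 or cycling markers, so its interval then included 0.

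Droplets with at least 2000 UMIs and no Cd79a UMI, which the report's comparisons leave out, numbered 14 (neonatal) and 4 (adult). In the neonatal ones Spi1 was at 433 CPM against 97.5 CPM in the cells with Cd79a, Pou2f2 at 442 against 467 CPM and Irf8 at 46.0 against 218 CPM, from 47, 48 and 5 UMIs. Pax5, Ebf1 and Bach2 had 0 UMIs there.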

How the results depend on the processing

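No paired analysis was possible because each age is 1 library and the result comes from no test. The number of members higher in the adult library was 0 in every setting tried. The number higher in the neonatal library was 2 as reported, 4 without droplets above the 95th percentile of UMIs, 4 with the mean over cells and 5 in cells with 2000 to under 5000 UMIs, and 2 or 3 in the other settings. The median ratio of the ages, -0.45, was -0.25 with at most 5% mitochondrial UMIs (60 neonatal and 156 adult cells), -0.52 without the droplets of most UMIs, -0.37 with cells thinned to 2000 UMIs, -0.32 with median-of-ratios scaling, -0.38 with a total without immunoglobulin, hemoglobin, ribosomal and mitochondrial genes, -0.37 with neonatal males, -0.58 in cells of 2000 to under 5000 UMIs and -0.21 in cells of at least 10000 UMIs. The median ratio of both over neither in the neonatal library, 0.18, had no stable sign: it was 0.56 with at most 5% mitochondrial UMIs, 0.012 without shared barcodes, 0.012 with groups and levels at 2000 UMIs, -0.019 without the droplets of most UMIs, -0.23 with levels thinned to 2000 UMIs, -0.15 with the mean over cells and -0.034 without B1 or cycling marker cells. In the adult library, 0.38, it was 0.95, 0.15 with levels thinned, 0.17 with the mean over cells and 0.088 with groups and levels at 2000 UMIs, the first with at most 5% mitochondrial UMIs. The causes were not tested. The ranges of UMIs and the removal of B1 or cycling marker cells were chosen after seeing the data. The difference of the median share, -8.19 percentage points, lay between -10.1 and -6.01. Counting error limits the smaller groups most, such as the 39 neonatal cells with both transcripts at 2000 UMIs.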
